A study of Mus musculus with 8 samples.

Results

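The Sin3 histone deacetylase complex was followed through 10 of its genes. These were the scaffolds Sin3a and Sin3b, the deacetylases Hdac1 and Hdac2, and the histone chaperones Rbbp4 and Rbbp7. Also among them were the associated subunits Sap18, Sap30 and Suds3, and the plant homeodomain protein Ing1. The genes were chosen by name, with earlier differences between the lines on these arrays known, and no threshold on a measured value was applied, so the p-values given here describe these arrays and are no independent support. A probe was taken when it was not a control and its RefSeq accession in the array annotation belonged to one of these genes. The search gave 17 of 55681 non-control probes and covered 10 of 20145 genes with a symbol. All 17 probes passed the filter on dim signals, and 15 of them were well above background on all 8 arrays. Several probes of a gene are kept apart and numbered from the brightest, because they match different stretches or transcripts of that gene and their levels cannot be set against each other.

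The arrays measured N18TG2, a mouse neuroblastoma line, and its derivative 2/4, a single clone that expresses ChAT, the choline acetyltransferase that synthesises the transmitter acetylcholine. The 4 groups were parental cells without retinoic acid, parental cells with retinoic acid, the clone without retinoic acid and the clone with retinoic acid, with 2 one-colour arrays in each. Retinoic acid, a vitamin A derivative that drives neuroblastoma cells towards neurons, was given at 1 µM in a differentiation medium with 1% fetal bovine serum, and growth medium held 10%. The selection drug G418, at 200 µg/mL, is named for the clone only. How long retinoic acid was applied and which medium the untreated cells had are not stated, so serum and retinoic acid cannot be told apart, and neither can G418, clonal origin and ChAT. Whether both arrays of 1 group represent independent cultures is not stated either, and p-values then measure only the spread between these samples, which may be technical.

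Sin3 proteins do not bind DNA themselves. They are docking platforms that transcription factors such as the Mad family partners of Max and the neuronal silencer REST use to bring deacetylases to promoters, where removal of acetyl groups from histone tails goes with lower transcription. Hdac1, Hdac2, Rbbp4 and Rbbp7 are shared with the NuRD complex and other complexes, whereas the Sin3 scaffolds, Sap30 and Suds3 mark the Sin3 complex. In neural cells Sin3 is best known as a partner of REST, which keeps neuronal genes low in cells that are not neurons.

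Levels are log2 scaled intensities, in which 0 is the 75th percentile of the non-control spots of an array. That percentile lay between 265 and 1264 intensity units before scaling. The share of non-control spots well above background was 48.6% to 63.3% on 7 arrays and 72.1% on the first clone array with retinoic acid. Replicate arrays correlated at r = 0.957 for the clone with retinoic acid and at 0.980 to 0.984 in the other 3 groups, over probes kept. The RNA protocol of the samples mentions hippocampus, a tissue the study did not sample by its other labels. Of 10 hippocampal neuron markers, 6 were kept, with a summed scaled intensity of 1.78 to 4.48 over the arrays, most of it from Zbtb20. All 12 of 12 sympathoadrenal neuroblast markers were kept, with sums of 82.2 to 179, and sums of different lists are not compared because probes differ in response. The markers of glia had 7 of 10 kept with sums of 0.857 to 2.11, those of fibroblasts 6 of 9 with 1.44 to 3.43, and those of vessels and microglia 8 of 10 with 4.43 to 10. Between the untreated lines Camk2a, Col1a1 and Tmem119 were called higher in the clone and Mbp, Hba-a1, Insm1 and Dbh lower, with Mbp, a myelin gene, lower by at least 28.4-fold (adjusted p = 0.00279). Under retinoic acid 2 fibroblast markers were higher and 1 lower, Camk2a and Tmem119 were higher, and Mbp was lower by at least 5.3-fold (adjusted p = 0.00967). Of the neuroblast markers 5 were higher and 3 lower, where 11.5% of all probes were higher and 8.34% lower. Hand1, 1 of these 5, passed the filter on dim signals only through the clone arrays with retinoic acid, where it was high. Mbp passed it only through parental arrays, so the filter favoured both calls. The part of these markers in the results was not tested. Parental retinoic acid and untreated clone arrays lay in slide row 1 and the other groups in row 2, so the slide row cannot be told apart from the line or from retinoic acid in the comparisons of 2 groups, nor from the difference between the lines' responses to retinoic acid. The averages over both lines or both treatments hold both rows on each side.

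Sin3b, 1 of the 2 alternative scaffolds, carried the widest difference of the complex. Its first probe (A_52_P57526) read −3.07 and −2.38 in untreated parental cells, −7.49 and −8.54 in parental cells with retinoic acid, 5.29 and 5.20 in the untreated clone, and 4.61 and 4.55 in the clone with retinoic acid. The clone arrays were thus all high and the parental arrays all low, with no overlap, and both parental arrays with retinoic acid were not well above background. Without retinoic acid the clone was higher by 7.98 ± 0.42 (log2 difference ± SE, a 252-fold difference), with an adjusted p of 0.000358 in limma's moderated test with Benjamini-Hochberg adjustment. This was the 2nd largest positive difference among 36616 probes kept. Under retinoic acid the clone was at least 1400-fold higher with this processing (10.45 on the log2 scale), the parental level being set to the lowest signal well above background on each array. The measured means were 4.58 and −8.01 (adjusted p = 7.86e-05). Such bounds are computed the same way throughout and hold for this processing only. With the normexp background correction the fitted difference was 8.10 on the log2 scale (adjusted p = 8.7e-05), smaller than that bound. The size thus depends on how the dim parental signals are treated.

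**Figure D1:**
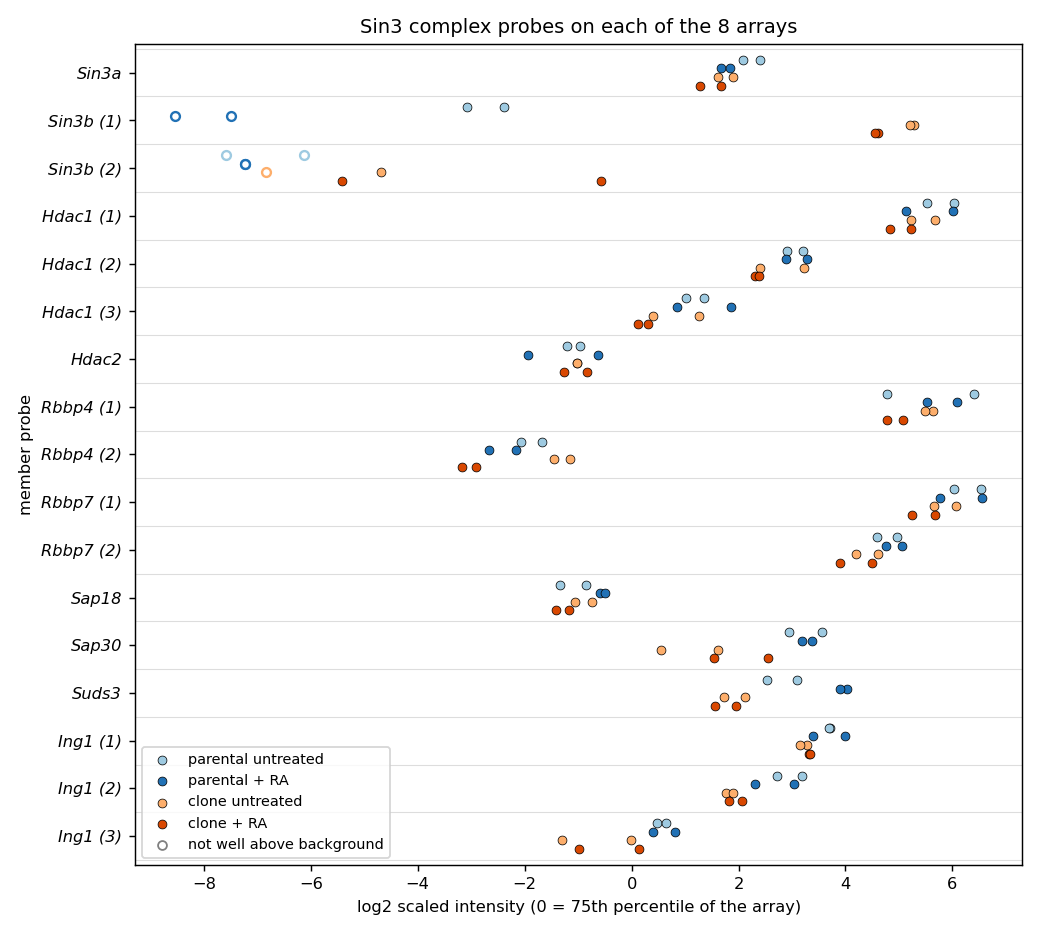
Log2 scaled intensity (x axis, 0 is the 75th percentile of an array) of the 17 Sin3 complex probes (rows) on each of 8 arrays, with 1 point per array, colours for the 4 groups and open points for signals not well above background. The first Sin3b probe separates the clone arrays, at 4.55 to 5.29, from the parental arrays, at −8.54 to −2.38, whereas most other probes lie within about the same range in all groups.

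Retinoic acid lowered the first Sin3b probe in parental cells by at least 8.83-fold (adjusted p = 0.0134). The call was lost with 8 of 20 alternative settings, which were normexp, no filter on dim probes and leaving out any 1 of the parental or untreated clone arrays, and with normexp the difference was −1.78, smaller than that bound. In the clone the difference was −0.66 ± 0.42 (adjusted p = 0.437), a 95% interval of −1.67 to 0.34. The difference between the responses of the lines was fitted at 4.62 ± 0.60 and did not pass the test (adjusted p = 0.0785). Setting dim signals to the lowest level well above background made it 2.48 (adjusted p = 0.193), so its size rests on parental signals that are not well above background.

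The second Sin3b probe (A_55_P2072543), assigned to another Sin3b transcript, was dim. It passed the filter on dim signals only through clone arrays, so the filter favoured a higher level in the clone. It read −6.13 and −7.59 in untreated parental cells and −7.23 on both parental arrays with retinoic acid, and none of these was well above background. The untreated clone read −4.68, which was well above background, and −6.83, which was not. The clone with retinoic acid read −0.56 and −5.42, both well above background, so the parental and clone groups did not overlap under retinoic acid. The fitted difference there was 4.24 ± 1.51 and did not pass the test (adjusted p = 0.0969), with a bound of at least 7.35-fold. Without the first clone array with retinoic acid it was 1.81, so that array carried much of the value. Over the alternatives the difference ran from 1.38 to 6.66. It did pass with arrays scaled to their median and with slide side as a replicate block, so the outcome depends on the setting.

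Sin3a, the other scaffold and the one that most cells depend on, had the opposite sign and a much smaller difference. It read 2.40 and 2.08 in untreated parental cells, 1.67 and 1.85 with retinoic acid, 1.62 and 1.89 in the untreated clone, and 1.28 and 1.66 in the clone with retinoic acid. Only the untreated parental arrays stood above all others. The clone minus parental difference was −0.48 ± 0.30 without retinoic acid (adjusted p = 0.414, 95% interval −1.19 to 0.23) and −0.29 ± 0.30 under it (adjusted p = 0.541, −1.0 to 0.43). Retinoic acid against no treatment gave −0.48 ± 0.30 for the parental line (adjusted p = 0.584) and −0.29 ± 0.30 for the clone (adjusted p = 0.640). These intervals exclude a shift of the size seen at Sin3b.

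The protein-coding neighbours of Sin3b on chromosome 8 were set beside it, a description chosen after its values were seen. All 9 nearby genes described, placed by the RefSeq gene order of GRCm38.p6, were kept. Without retinoic acid 1 of 9 was higher in the clone and none was lower (8.05% of all probes were called in either direction). Tmem38a, a cation channel gene and second to the 5′ side, was higher by 2.24 ± 0.30 (adjusted p = 0.00687). Under retinoic acid 2 of 9 were higher and 1 lower (19.8% of all probes called). Tmem38a was then higher by 2.59 ± 0.30 (adjusted p = 0.00226). F2rl3, a thrombin receptor gene and the next gene on the 3′ side, was not well above background on any parental array and was at least 2.82-fold higher in the clone (adjusted p = 0.00816). F2rl3 passed the filter on dim signals only through clone arrays, so the filter favoured this call, which is no support for a difference. Isx, a homeobox gene, was lower by a fitted 3.09 ± 0.71 (adjusted p = 0.0259), with 1 of 2 clone arrays well above background. Isx needed the parental retinoic acid arrays, where it was high, to pass the filter, so its call has the same limit. Nwd1, the gene next to Sin3b on the 5′ side, differed by 0.01 ± 0.39 and 0.33 ± 0.39 and was not called (adjusted p = 0.992 and 0.596). These 9 genes therefore did not move as a block, and none of them came near the Sin3b difference.

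**Figure D2:**
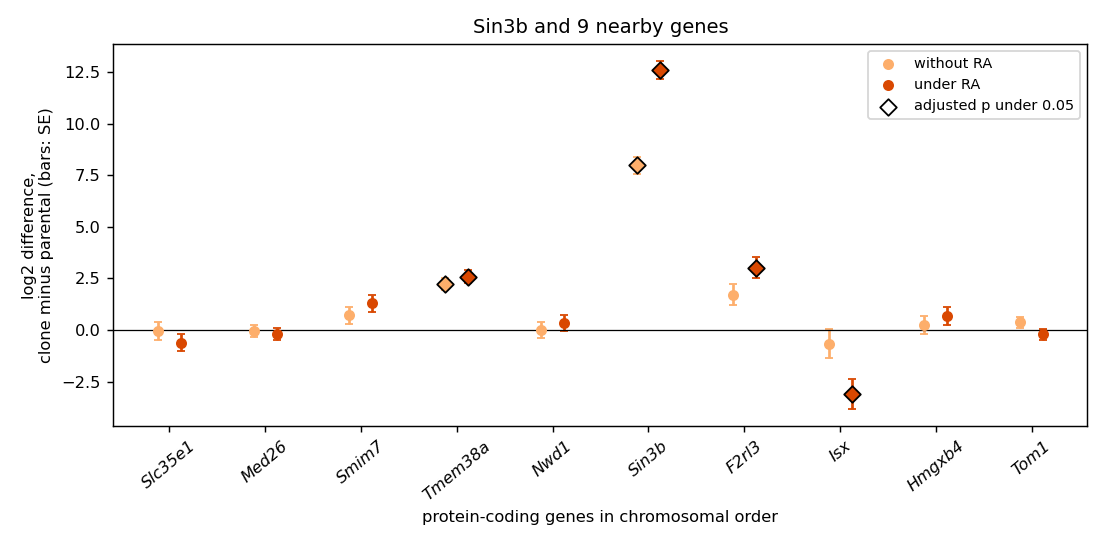
Log2 difference between the clone and the parental line (y axis, bars are standard errors, 2 arrays a group) for Sin3b and 9 nearby protein-coding genes in chromosomal order (x axis), without and under retinoic acid (RA), with diamonds at an adjusted p under 0.05. Sin3b stands at 7.98 and at a fitted 12.6, a value that rests on parental signals not well above background, whereas the 9 nearby genes lie between −3.09 and 3.02. The ends of that range, Isx and F2rl3, also rest in part on signals not well above background. Tmem38a, well above background on all 8 arrays, reached 2.59.

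Hdac1 and Hdac2, the zinc-dependent enzymes that remove the acetyl groups, did not pass the test in any of the 7 comparisons fitted. The first Hdac1 probe (A_55_P1970775) read 6.04 and 5.52 in untreated parental cells, 6.01 and 5.13 with retinoic acid, 5.23 and 5.67 in the untreated clone, and 4.83 and 5.22 in the clone with retinoic acid. The second (A_66_P128384) read 3.20 and 2.91, then 3.29 and 2.89, then 2.40 and 3.22, and 2.30 and 2.38 in the same order. The third (A_55_P2077608) read 1.36 and 1.01, then 0.85 and 1.85, then 0.39 and 1.27, and 0.11 and 0.31. In each probe the clone with retinoic acid had the lowest mean, and on the second and the third probe it did not overlap parental cells with retinoic acid. The differences under retinoic acid were −0.55 ± 0.41, −0.75 ± 0.36 and −1.14 ± 0.45 (adjusted p = 0.386, 0.198 and 0.126). A pseudogene of Hdac1 exists, so these signals may not come from Hdac1 alone.

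Hdac2 was measured by 1 probe (A_51_P116007) printed in 10 spots on each array. It read −1.21 and −0.96 in untreated parental cells, −1.95 and −0.64 with retinoic acid, −1.03 and −1.02 in the untreated clone, and −1.26 and −0.83 in the clone with retinoic acid. The ranges of all 4 groups overlapped. The SD over the spots of an array was 0.0456 to 0.108, while the parental arrays with retinoic acid differed by over 1 log2 unit, so the spread lies between arrays and not between spots. The clone minus parental difference was 0.06 ± 0.45 without retinoic acid (adjusted p = 0.963, 95% interval −1.03 to 1.14) and 0.25 ± 0.45 under it (adjusted p = 0.740, −0.83 to 1.33).

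Rbbp4 and Rbbp7, the WD-repeat proteins that hold histones for several chromatin complexes, were measured by 2 probes each. The first Rbbp4 probe (A_51_P307325) read 6.40 and 4.77 in untreated parental cells, 6.09 and 5.53 with retinoic acid, 5.64 and 5.50 in the untreated clone, and 4.77 and 5.07 in the clone with retinoic acid. The second (A_52_P424767) read −1.67 and −2.06, then −2.16 and −2.67, then −1.45 and −1.15, and −3.16 and −2.91. On this second probe the clone arrays with retinoic acid were the lowest of all and the untreated clone arrays the highest, with no overlap between any of the 4 groups.

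Retinoic acid lowered the second Rbbp4 probe in the clone by 1.73 ± 0.33 on the log2 scale, a 3.32-fold difference (adjusted p = 0.0467). The first probe, on the same arrays, differed by −0.65 ± 0.54 (adjusted p = 0.551), so the probes share a sign but only the dimmer one passed. In parental cells the second probe differed by −0.54 ± 0.33 (adjusted p = 0.564). The difference between the lines' responses was −1.19 ± 0.46 and did not pass (adjusted p = 0.364). The call in the clone was lost with 13 of the alternative settings, 7 of them leaving out a single array.

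The first Rbbp7 probe (A_55_P2123822) read 6.53 and 6.02 in untreated parental cells, 6.56 and 5.76 with retinoic acid, 5.66 and 6.07 in the untreated clone, and 5.24 and 5.67 in the clone with retinoic acid. The second (A_55_P2080542) read 4.60 and 4.96, then 4.75 and 5.06, then 4.19 and 4.62, and 3.91 and 4.49. Both put the clone below the parental line under retinoic acid with no overlap. The sizes were −0.70 ± 0.39 and −0.71 ± 0.34 (adjusted p = 0.257 and 0.198), within what the spread between arrays allows.

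Sap30, a small zinc-finger subunit that joins the deacetylases to the scaffold, was lower in the clone. Its probe (A_51_P432199) read 3.56 and 2.94 in untreated parental cells, 3.37 and 3.18 with retinoic acid, 1.62 and 0.55 in the untreated clone, and 1.53 and 2.56 in the clone with retinoic acid. Every clone array lay below every parental array. Without retinoic acid the clone was lower by 2.16 ± 0.50 on the log2 scale, a 4.48-fold difference (adjusted p = 0.0485). Under retinoic acid the difference was −1.23 ± 0.50 and did not pass (adjusted p = 0.137). Averaged over both treatments Sap30 was lower by 1.70 ± 0.36 (adjusted p = 0.0152), a call lost with the 1.5-fold threshold and without the first untreated parental, the first parental retinoic acid or the second untreated clone array (adjusted p up to 0.0742). The untreated call lies at the threshold and was lost with 12 of 21 alternative settings (adjusted p up to 0.268). These were leaving out any 1 of the 4 untreated arrays or either parental retinoic acid array, a block for slide side, the values of the series table, normexp, no filter on dim probes, the 1.5-fold threshold and only the groups compared, whereas the difference itself stayed between −2.70 and −1.63.

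Suds3, the subunit that dimerises the complex and is needed for its deacetylase activity, was lower in the clone under retinoic acid. Its probe (A_52_P579876) read 2.52 and 3.1 in untreated parental cells, 4.03 and 3.89 with retinoic acid, 2.12 and 1.73 in the untreated clone, and 1.56 and 1.95 in the clone with retinoic acid. The parental arrays with retinoic acid were the highest, the untreated parental arrays came next, and the clone arrays of both treatments overlapped below them. Under retinoic acid the clone was lower by 2.21 ± 0.33, a 4.61-fold difference (adjusted p = 0.0057). Without it the difference was −0.88 ± 0.33 (adjusted p = 0.18). Retinoic acid against no treatment gave 1.15 ± 0.33 for the parental line (adjusted p = 0.203) and −0.18 ± 0.33 for the clone (adjusted p = 0.809). The difference between these responses was −1.32 ± 0.47 and did not pass the test (adjusted p = 0.323). The Suds3 call under retinoic acid was kept with all 21 alternative settings, with adjusted p from 0.000538 to 0.0384.

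Suds3 had the widest range of group means among the member probes well above background on all arrays. The 3 genes whose levels followed it most closely over the 8 arrays, among 12183 genes compared, were Ftsj3, a ribosomal RNA processing factor (r = 0.984), Kti12, a gene linked to transfer RNA modification (r = 0.978), and P4hb, the protein disulfide isomerase of the endoplasmic reticulum (r = 0.978). The 8 points fall into the 4 groups of the design, and these are the best of many correlations, so they describe the pattern and test nothing.

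Sap18, which binds the complex and also belongs to RNA-processing complexes, was not called. Its probe (A_52_P101333) read −1.34 and −0.85 in untreated parental cells, −0.58 and −0.50 with retinoic acid, −1.07 and −0.75 in the untreated clone, and −1.42 and −1.17 in the clone with retinoic acid. Parental cells with retinoic acid were highest and the clone with retinoic acid lowest, with no overlap between them. The difference under retinoic acid was −0.75 ± 0.31 (adjusted p = 0.134). A near-identical copy, Sap18b, exists in the mouse genome, so the signal may come from either.

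Ing1, which reads methylated histone tails and joins the complex to active promoters, was measured by 3 probes. The first (A_55_P2061159) read 3.71 and 3.69 in untreated parental cells, 3.99 and 3.39 with retinoic acid, 3.28 and 3.15 in the untreated clone, and 3.32 and 3.34 in the clone with retinoic acid. The second (A_55_P2159299) read 3.19 and 2.72, then 3.05 and 2.30, then 1.76 and 1.90, and 1.82 and 2.07. The third (A_66_P124817) read 0.47 and 0.65, then 0.41 and 0.81, then −1.30 and −0.02, and −0.98 and 0.14. On all 3 probes every clone array lay below every parental array.

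The average clone minus parental difference at Ing1 was −0.42 ± 0.21 on the first probe (adjusted p = 0.192), −0.93 ± 0.25 on the second (adjusted p = 0.0369) and −1.12 ± 0.38 on the third (adjusted p = 0.0737). Only the second passed, and its call was lost with 8 of the alternative settings. The third ran from −1.55 to −0.80 over the alternatives. It passed with arrays scaled to their median, with only probes well above background on all arrays, with trended and robust variance and with slide side as a replicate block. The single comparisons did not pass on any Ing1 probe. Retinoic acid differences on the 3 probes ran from −0.28 to 0.24, with adjusted p of at least 0.817.

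Taking the 17 probes together, 1 was higher and 1 lower in the untreated clone, and 15 were not called. Over all probes kept, 5.1% were higher and 2.95% lower in that comparison, so the count for the complex is close to the background. Under retinoic acid 1 was higher and 1 lower, against 11.5% and 8.34% of all probes. The average over both treatments had 1 higher (Sin3b) and 3 lower (Sap30, Suds3 and Ing1), against 14.9% and 10% of all probes. The median difference over the member probes was −0.355 without retinoic acid and −0.71 under it, while the median over all probes was 0.126 and 0.144. Among probes well above background on all arrays, the member medians were −0.372 and −0.729 and those of all such probes 0.0323 and −0.0742. Hdac1 and Ing1 enter the member medians with 3 probes each. Under retinoic acid 13 of 17 probes were lower in the clone with no overlap of the arrays (26.5% of all probes), and 2 were higher, both of Sin3b (30.9% of all probes). Without retinoic acid 6 were lower with no overlap (22.8% of all probes) and 2 higher (35.8%). Over both treatments 5 had every clone array below every parental array (9.38% of all probes) and 1 the reverse (15%).

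**Figure D3:**
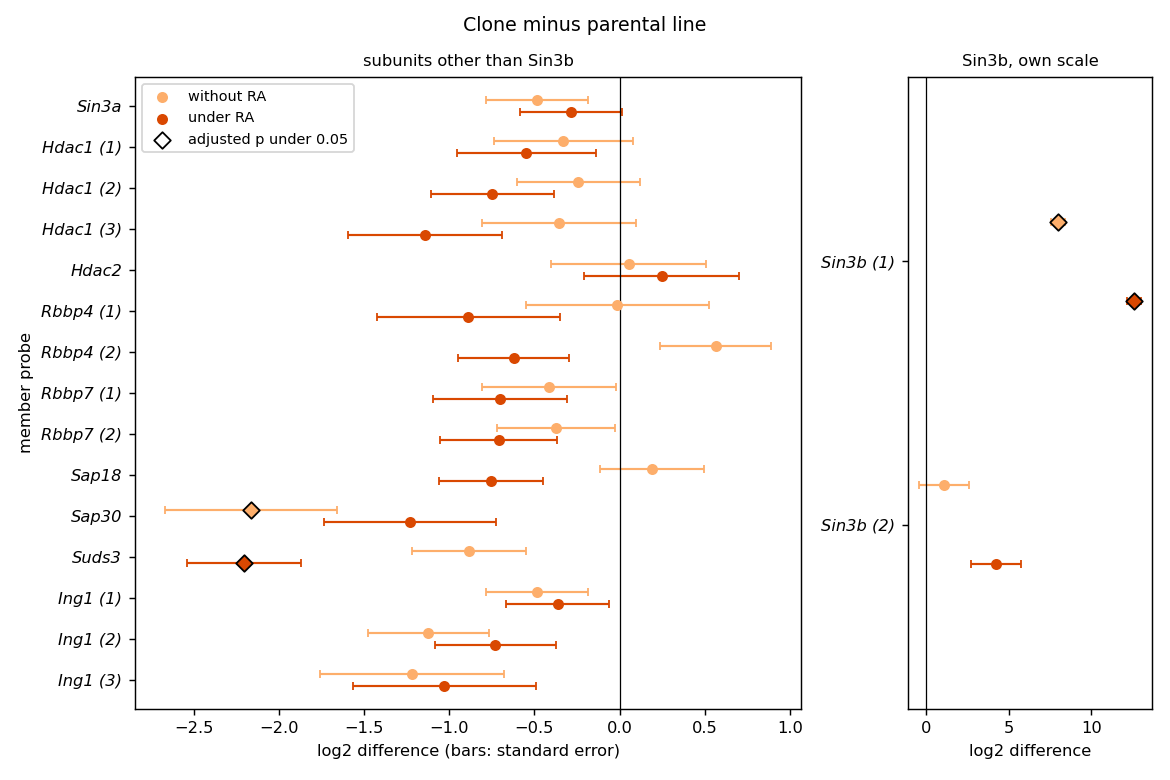
Log2 difference between the clone and the parental line (x axis, bars are standard errors, 2 arrays a group) for 15 probes of 9 subunits (left) and the 2 Sin3b probes on their own scale (right), without and under retinoic acid (RA), with diamonds at an adjusted p under 0.05. Sap30 at −2.16 and Suds3 at −2.21 are the called decreases, most other subunits lie to the left of 0 under retinoic acid without passing, and Sin3b lies far to the right.

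Scaling matters for these signs. When arrays were scaled to their median instead of the 75th percentile, the median difference over all probes under retinoic acid moved from 0.144 to −0.578, and that over the member probes from −0.71 to −1.43. With quantile normalization they were −0.178 and −0.592. The member median thus stayed below that of all probes with each scaling, and 14 or 15 of 17 member probes were negative. The share of higher probes among all called ones under retinoic acid was 57.9% here, 48.9% with quantile normalization and 30% with median scaling, under which 2 member probes were higher and 3 lower.

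Retinoic acid was compared with no treatment within each line. In parental cells 1 of 17 probes was lower and none was higher, against 0.322% and 0.363% of all probes (0.685% in either direction). In the clone 1 was lower and none higher, against 1.17% and 1.66% (2.82% in either direction). The called probes were the first of Sin3b and the second of Rbbp4. Arrays did not overlap for 2 higher and 3 lower member probes in parental cells (25% and 18.9% of all probes) and for 1 higher and 7 lower in the clone (25.7% and 25.6%). Averaged over the lines, 2 probes were lower (Sin3b with a fitted −2.97 ± 0.30 and adjusted p = 0.0133, and the second of Rbbp4 with −1.14 ± 0.23 and adjusted p = 0.0474) and none was higher, against 1.66% and 2.29% of all probes (3.95% in either direction). The Sin3b value rests on parental retinoic acid signals not well above background, ran from −3.40 to −1.25 over the alternatives and lost its call with 7 of 19, and the Rbbp4 call was lost with 13 of 19 (adjusted p up to 0.516). For 1 of 17 every retinoic acid array lay below every untreated one (3.05% of all probes), and for none above (4.05%). The member medians were −0.0102 in parental cells and −0.286 in the clone, beside 0.067 and 0.0804 over all probes. In the clone 12 of 17 probes were negative, but 8 of 17 with quantile normalization, so no common direction of the retinoic acid differences can be read.

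In the test of the difference between the lines' responses 0 of 17 probes passed in limma, with 3 at an unadjusted p under 0.05 (Sin3b, Suds3 and Rbbp4, above). Over all probes 21 passed, which is 0.0574% (0.0382% positive and 0.0191% negative), and 4536 had an unadjusted p under 0.05. A count of 0 among 17 is therefore what the background gives, and a call in 1 line and not in the other is not shown to differ.

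**Figure D4:**
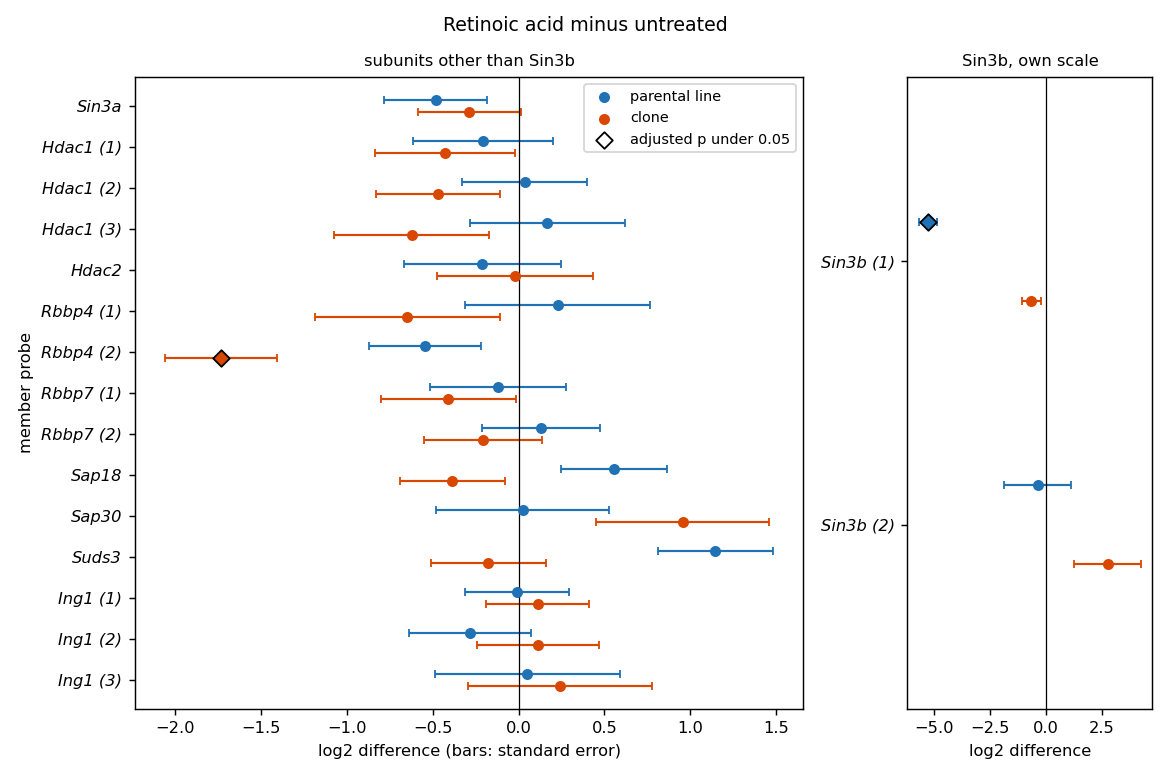
Log2 difference between retinoic acid and untreated arrays (x axis, bars are standard errors, 2 arrays a group) for 15 probes of 9 subunits (left) and the 2 Sin3b probes on their own scale (right), in the parental line and in the clone, with diamonds at an adjusted p under 0.05. The called probes are the second of Rbbp4 in the clone, at −1.73, and the first of Sin3b in parental cells, at a fitted −5.28 that rests on signals not well above background.

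The paralogues of the complex are set side by side by their line differences. The first Sin3b probe differed by 7.98 and Sin3a by −0.48 without retinoic acid. Hdac1 probes differed by −0.35 to −0.24 and Hdac2 by 0.06. Rbbp4 probes differed by −0.01 and 0.56, and Rbbp7 probes by −0.41 and −0.37. Under retinoic acid the Sin3b probes differed by a fitted 12.6 and 4.24, resting on dim parental signals, and Sin3a by −0.29. Hdac1 probes then differed by −1.14 to −0.55 and Hdac2 by 0.25, Rbbp4 probes by −0.89 and −0.62, and Rbbp7 probes by −0.70 and −0.71. Of all these only the first Sin3b probe was called. These are differences of each probe between groups, and no level of one gene was set against that of another.

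The promoters of the 3 subunits with the clearest line differences are shown because Sin3b was higher and Sap30 and Suds3 lower in the clone. The sequences are the 250 bases before the transcription start in RefSeq, build GRCm38.p6, written 5′ to 3′ on the gene's strand, with the motif letters found in capitals. These are the GC box GGGCGG and, in Sap30 alone, the nuclear receptor half-site AGGTCA, which appear as their reverse complement where they lie on the other strand.
Sin3b, chr8:72723020-72723269, plus strand: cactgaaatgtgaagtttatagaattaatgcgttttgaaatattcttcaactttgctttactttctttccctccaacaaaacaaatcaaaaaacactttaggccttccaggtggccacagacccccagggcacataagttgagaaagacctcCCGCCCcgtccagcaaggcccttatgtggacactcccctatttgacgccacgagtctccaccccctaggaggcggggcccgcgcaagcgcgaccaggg
Sap30, chr8:57487861-57488110, minus strand: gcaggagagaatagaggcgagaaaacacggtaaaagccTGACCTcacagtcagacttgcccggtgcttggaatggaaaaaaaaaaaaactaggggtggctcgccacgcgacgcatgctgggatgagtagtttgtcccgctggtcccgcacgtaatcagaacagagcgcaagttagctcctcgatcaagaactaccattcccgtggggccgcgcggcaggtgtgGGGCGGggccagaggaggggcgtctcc
Suds3, chr5:117115994-117116243, minus strand: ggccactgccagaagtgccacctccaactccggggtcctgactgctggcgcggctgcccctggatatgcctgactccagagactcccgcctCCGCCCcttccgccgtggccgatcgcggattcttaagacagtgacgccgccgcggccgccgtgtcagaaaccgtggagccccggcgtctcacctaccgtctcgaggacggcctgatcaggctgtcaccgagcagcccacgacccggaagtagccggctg
All 3 windows hold 1 GC box. They hold 10 CpG (Sin3b), 18 (Sap30) and 26 (Suds3), against a median of 6 over 32851 promoters of the same length, and their GC contents are 50.8%, 58% and 68.4%.

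Over the complex, 9 of 10 genes matched the promoter table, with 14 windows in all and several for Ing1 and Sin3a. The GC box was in 13 of 14 windows, against 32.7% of all promoters searched on both strands. The CCAAT box was in 7 of 14 (33.8% of all), the half-site AGGTCA in 2 (14% of all) and the E-box CACGTG in 1 (6% of all). The E2F forms TTTCCCGC and TTTGGCGC were in none, and 0.9% and 0.4% of all promoters hold them. Motifs that overlap were each counted. The window without a GC box was that of Sap18, which had no called line difference, and Hdac1 had no window. Some Ing1 windows overlap, so the windows are not independent. The windows of Sin3b, Sap30 and Suds3 each hold 1 GC box, so this motif does not separate Sin3b from these subunits that were lower.

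The other subunits of the complex were taken from a list of 13 genes, all of them measured. Without retinoic acid none was called in limma (2 at an unadjusted p under 0.05), where 8.05% of all probes were called. Under retinoic acid none was higher and 3 were lower in the clone, against 11.5% and 8.34% of all probes. Brms1, a subunit known as a metastasis suppressor, was lower by 2.36 ± 0.40 (5.12-fold, adjusted p = 0.00869). Sap25, a small Sin3-associated polypeptide, was lower by 1.53 ± 0.30 (adjusted p = 0.0138), and Gatad1, a reader of methylated histone tails, by 1.36 ± 0.31 (adjusted p = 0.0239). The list median was −0.122, against 0.144 for all probes. Sap130, another Sin3-associated polypeptide, differed by 0.30 ± 0.34 and 0.27 ± 0.34 and was not called (adjusted p = 0.681 and 0.625). Between retinoic acid and no treatment none of the 13 was called in limma in either line, with 1 at an unadjusted p under 0.05 in each. Of all probes 0.685% were called in parental cells and 2.82% in the clone.

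DNA-binding partners that bring Sin3 to promoters had 16 of 17 genes measured. None was called in limma without retinoic acid (2 at an unadjusted p under 0.05), where 8.05% of all probes were called. Under retinoic acid none was higher and 3 were lower in the clone (11.5% and 8.34% of all probes). These were Mxd3, a Mad family repressor (−2.03 ± 0.38, adjusted p = 0.0118), Klf10, a zinc-finger repressor (−1.85 ± 0.38, adjusted p = 0.0165), and Rbl1, the pocket protein p107 (−1.58 ± 0.38, adjusted p = 0.0307). Rest read −0.21 and −0.22 in untreated parental cells, 0.12 and 0.54 with retinoic acid, 0.06 and −0.43 in the untreated clone, and −0.31 and −0.58 in the clone with retinoic acid. Its line difference was 0.03 ± 0.32 without retinoic acid and −0.78 ± 0.32 under it, neither of them called (adjusted p = 0.967 and 0.133). Max, the common partner of the Mad and Myc proteins, differed by −0.02 ± 0.34 and −0.32 ± 0.34 (adjusted p = 0.987 and 0.559).

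Target genes of REST in neurons, a list of 18 with 17 measured, had 3 higher and 1 lower in the untreated clone, and 8 higher and 1 lower under retinoic acid. Of all probes 5.1% were higher and 2.95% lower without retinoic acid, and 11.5% and 8.34% under it. Stmn2, which encodes a growth cone protein, read 1.74 and 1.58 in untreated parental cells, −0.40 and −1.30 with retinoic acid, 5.47 and 5.59 in the untreated clone, and 6.24 and 6.28 in the clone with retinoic acid. It was higher in the clone by 3.88 ± 0.36 and by 7.11 ± 0.36 (adjusted p = 0.0015 and 0.000155), with no overlap. Syn1, a synaptic vesicle protein gene, was higher by 2.47 ± 0.31 and 3.71 ± 0.31 (adjusted p = 0.00494 and 0.000697). Bdnf, a neurotrophin gene, went the other way and was lower by 4.02 ± 0.31 and 3.57 ± 0.31 (adjusted p = 0.00085 and 0.000785). With retinoic acid Stmn2 fell by 2.51 ± 0.36 in parental cells (adjusted p = 0.0413), a call lost without any 1 of the parental or untreated clone arrays. In the clone retinoic acid raised Chga, the chromogranin A gene, by 1.71 ± 0.30 (adjusted p = 0.0407). The list median under retinoic acid was 1.61 between the lines, and with median scaling 7 genes were higher and 2 lower.

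Complexes that share subunits with Sin3 were described next. In the NuRD and CoREST list all 20 genes were measured. In the untreated clone 1 was higher (Gatad2a, a NuRD subunit, by 1.47 ± 0.30, adjusted p = 0.0307), against 5.1% of all probes. Under retinoic acid 3 were higher, against 11.5%, and none was lower in either comparison (2.95% and 8.34% of all probes). The counts of higher genes thus lie close to the background. The 3 under retinoic acid were Rcor2, a CoREST scaffold (1.60 ± 0.29, adjusted p = 0.0113), and the remodellers Chd3 and Chd5 (1.49 ± 0.29 and 1.22 ± 0.31, adjusted p = 0.0146 and 0.0348). With median scaling none of the 20 was called in either comparison, so these calls depend on the scaling. The lists were not tested against each other.

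Among 21 other deacetylases and NCoR complex genes, 1 was higher without retinoic acid (Sirt5, a mitochondrial sirtuin, by 1.28 ± 0.29, adjusted p = 0.0451) and none lower, against 5.1% and 2.95% of all probes. Under retinoic acid 6 were higher and 1 lower, against 11.5% and 8.34% of all probes. Hdac11 was higher by 2.56 ± 0.28 (5.88-fold, adjusted p = 0.00179), Hdac10 by 1.86 ± 0.28 (adjusted p = 0.00583) and Hdac6, the tubulin deacetylase, by 1.93 ± 0.31 (adjusted p = 0.00697), and Sirt7, a nucleolar sirtuin, was lower by 1.43 ± 0.31 (adjusted p = 0.02). The list median, −0.393, had the opposite sign to most calls, and with median scaling 1 gene was higher and 4 lower. Hdac3, the enzyme of the NCoR complex, differed by −0.89 ± 0.43 and 0.10 ± 0.43 and was not called (adjusted p = 0.282 and 0.891).

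Other complexes that hold Rbbp4 or Rbbp7, 13 genes all measured, had 1 lower without retinoic acid and 5 lower under it, and none higher. Of all probes 2.95% and 8.34% were lower in these comparisons, and 5.1% and 11.5% higher. Smarca1, a chromatin remodeller, was not well above background in the untreated clone and was at least 29.7-fold lower there (adjusted p = 0.018). Smarca1 needed the parental arrays, where it was high, to pass the filter on dim signals. The filter thus favoured this call, which is no support for a difference. Lin54 and Lin52, subunits of the DREAM complex that represses cell-cycle genes, were lower by 1.94 ± 0.32 and 2.00 ± 0.36 under retinoic acid (adjusted p = 0.0083 and 0.0104), and Chaf1a, of the chromatin assembly factor, by 1.18 ± 0.28 (adjusted p = 0.0289).

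The summed intensity of the cell division genes was lowest on the clone's arrays with retinoic acid. The Sin3a, Hdac1, Rbbp4, Rbbp7, Sap18 and Suds3 probes also had their lowest group means there, and the Sin3b, Hdac2, Sap30 and Ing1 probes did not. The share of all probes with their lowest mean there was not counted, so this order is no result about the members. Among them only the second Rbbp4 probe was called lower with retinoic acid in the clone. In limma 0 of 18 cell division genes were called between the untreated lines (8.05% of all probes), with 2 at an unadjusted p under 0.05. Under retinoic acid 16 of 18 were lower in the clone with each of the 3 scalings compared, among them Tpx2 (a spindle factor, by 2.89 ± 0.31, adjusted p = 0.00166), Top2a (a topoisomerase, by 2.41 ± 0.30, adjusted p = 0.00267) and Nusap1 (a spindle protein, by 2.29 ± 0.30, adjusted p = 0.00322). With retinoic acid in parental cells 0 of 18 were called in limma (0.685% of all probes). The difference between the lines' responses passed for 0 of 18 (0.0574% of all probes), with 14 at an unadjusted p under 0.05. A response of these genes in the clone alone is therefore not shown. Retinoic acid in the clone lowered 3 of 18, Ube2c by 2.07 ± 0.32, Plk1 by 1.69 ± 0.27 and Aurka by 1.63 ± 0.31 (adjusted p = 0.0336, 0.0342 and 0.0472), where 1.17% of all probes were lower. No list gene, these 3 and Chga included, was called in that comparison without any 1 of the 4 parental or 2 untreated clone arrays, with no filter on dim probes, with the 1.5-fold threshold or with only the groups compared. The summed scaled intensity of the 18 was 378 to 464 on the parental arrays, 334 to 381 in the untreated clone and 121 to 143 in the clone with retinoic acid. The part of fewer dividing cells in the Sin3 complex values was not tested, and in these bulk samples fewer cells of a type and less RNA per cell cannot be told apart.

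**Figure D5:**
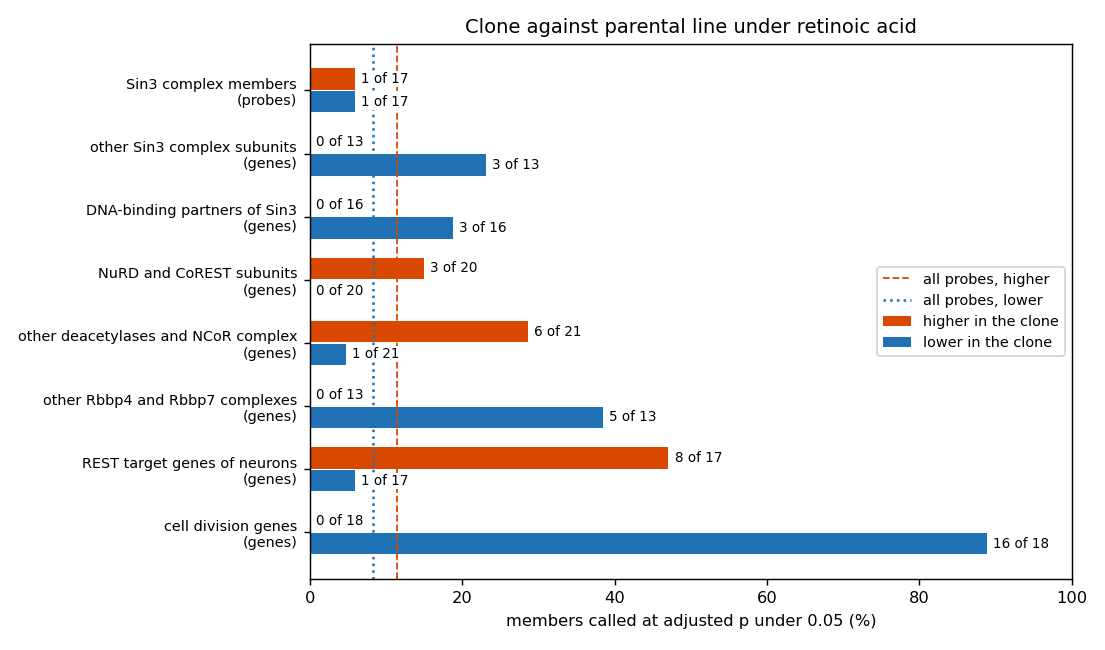
Percent of measured genes (probes for the Sin3 complex members) called higher or lower in the clone than in the parental line under retinoic acid at an adjusted p under 0.05 (x axis), for the Sin3 complex members and 7 lists of related genes (rows), with the share of all probes called higher (11.5%) and lower (8.34%) as vertical lines. The members, with 1 of 17 each way, lie below both lines, and 16 of 18 cell division genes were lower.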

How the data were processed

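Per the file headers, Agilent Feature Extraction 10.7.3.1 subtracted the background from the intensity of each spot and removed spatial trends, array by array, with no scaling across the 8 one-colour arrays. The log2 values that the authors deposited in the series table differed from the scaling used here by 1 constant per array (−0.154 to −0.261) and served as an alternative. From the scanner intensity, log2 minus the 75th percentile of non-control spots was taken, 3671 control spots and outlier spots per array were left out, and spots of a probe were averaged. Probes needed a signal well above background on 2 arrays or more, which kept 36616 of 55681. One mean per group was fitted to each probe with limma 3.58.1 in R 4.3.3 over all 8 arrays (lmFit, eBayes, 4 residual and 2.84 prior degrees of freedom) and tested in 7 comparisons, and p-values were adjusted over all probes kept (Benjamini-Hochberg). Genes were named by RefSeq accession, which gave 26582 of 28116 such probes a symbol. A list gene was represented by its brightest kept probe.

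The members and gene lists were chosen with earlier results of these data known, so their values describe these arrays and are no independent support. The text names every member probe, up to 3 called genes per list and comparison by smallest adjusted p, and Rest, Hdac3, Max and Sap130. The fit was tested on simulated data. The number of arrays limits the precision. Each member was refitted with the alternatives given in the closing section. For the normexp alternative the median signal of a spot stood in for the mean. A gene near Sin3b is not reported here. Probe sequences and genome coordinates of probes were not used here.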

Additional observations from a re-analysis of the deposited data

How the results depend on the processing

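No called difference of a member probe changed sign under any alternative. The line differences of the first Sin3b probe and the Suds3 difference under retinoic acid passed the test with each alternative run. Leaving out 1 array at a time gave these ranges of called member probes, in the order clone against parental without and under retinoic acid, retinoic acid in parental cells and in the clone, difference of responses, average clone effect and average retinoic acid effect: 1 to 2, 2 to 3, 0 to 1, 0 to 2, 0 to 1, 2 to 6 and 0 to 3. For called list genes, of 157 tested, the ranges in the same order were 6 to 15, 33 to 59, 0 to 5, 0 to 15, 0 to 4, 41 to 62 and 0 to 13, where all arrays gave 14, 60, 4, 5, 0, 58 and 6.

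Settings that moved a count by over 1.5 times follow, where all arrays gave 2, 2, 1, 1, 0, 4 and 2 called member probes in the order above. With normexp with an offset of 50, member counts were 1 for the untreated lines, 0 for retinoic acid in parental cells, 0 for retinoic acid in the clone and 0 for the average retinoic acid effect, and list counts were 0 for retinoic acid in parental cells, 1 for retinoic acid in the clone and 2 for the average retinoic acid effect. With the series table values, member counts were 1 for the untreated lines. With no filter on dim probes, member counts were 1 for the untreated lines, 0 for retinoic acid in parental cells, 0 for retinoic acid in the clone and 0 for the average retinoic acid effect, and list counts were 9 for the untreated lines, 35 for the lines under retinoic acid, 0 for retinoic acid in parental cells, 0 for retinoic acid in the clone and 0 for the average retinoic acid effect. With only probes well above background on all arrays, member counts were 1 for the untreated lines, 1 for the lines under retinoic acid, 0 for retinoic acid in parental cells and 1 for the average retinoic acid effect, and list counts were 21 for retinoic acid in the clone, 3 for the difference of responses and 19 for the average retinoic acid effect. With trended and robust variance, member counts were 1 for the difference of responses, and list counts were 26 for the untreated lines, 24 for retinoic acid in the clone, 5 for the difference of responses and 20 for the average retinoic acid effect. With the side of the slide as a replicate block, member counts were 1 for the untreated lines, 0 for retinoic acid in the clone and 1 for the average retinoic acid effect, and list counts were 1 for retinoic acid in parental cells and 3 for the average retinoic acid effect. With a 1.5-fold threshold, member counts were 1 for the untreated lines, 0 for retinoic acid in the clone, 2 for the average clone effect and 1 for the average retinoic acid effect, and list counts were 33 for the lines under retinoic acid, 0 for retinoic acid in parental cells, 0 for retinoic acid in the clone, 28 for the average clone effect and 0 for the average retinoic acid effect. With only the groups compared, member counts were 1 for the untreated lines and 0 for retinoic acid in the clone, and list counts were 22 for the lines under retinoic acid, 1 for retinoic acid in parental cells and 0 for retinoic acid in the clone. With median scaling, member counts were 5 for the lines under retinoic acid and 1 for the difference of responses, and list counts were 11 for retinoic acid in the clone and 10 for the average retinoic acid effect. With quantile normalization, member counts were 0 for retinoic acid in the clone, 1 for the difference of responses and 1 for the average retinoic acid effect, and list counts were 2 for retinoic acid in parental cells. With the mean of the probes of a gene, member counts were 0 for retinoic acid in parental cells, 0 for retinoic acid in the clone and 0 for the average retinoic acid effect, and list counts were 10 for retinoic acid in the clone. With 1 probe per gene, member counts were 0 for retinoic acid in the clone, 1 for the difference of responses and 1 for the average retinoic acid effect, and list counts were 13 for retinoic acid in the clone and 10 for the average retinoic acid effect. With a floor for dim signals, member counts were 1 for the average retinoic acid effect.

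The Sin3b fall with retinoic acid in parental cells was not called with normexp (−1.78, adjusted p = 0.257) or without the filter on dim probes (−5.28, adjusted p = 0.0729), nor without any 1 of the parental or untreated clone arrays (adjusted p of 0.0619 to 0.152). The Sin3b difference between responses passed with quantile normalization (4.87, adjusted p = 0.0424), median scaling (4.03, adjusted p = 0.00987), trended and robust variance (adjusted p = 0.0119), 1 probe per gene (adjusted p = 0.0495) and without the second clone array with retinoic acid (4.65, adjusted p = 0.0306). The cause of these changes was not tested. No paired analysis was possible because the labels carry no replicate numbers. The side of the slide, which holds 1 array of each group on each side, was used as a replicate block instead. Signal over background limits the dim end, where both Sin3b probes lie in parental cells.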
